A study of Arabidopsis thaliana with 12 samples.

Results

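Whole Arabidopsis thaliana seedlings were treated with the inhibitor L-AOPP for 3 h and compared with mock-treated seedlings on 6 of the 12 arrays of the series, 3 for each treatment. Arrays were taken by their titles and paired by the replicate number that the titles give. For the L-AOPP group, the inhibitor was added in DMSO to 50 µM, and the mock plants received DMSO. All plants were wild type of the Col-0 ecotype, 7 days old, and had grown at 21 °C in gently shaken liquid medium with light around the clock. The other 6 arrays hold plants given L-AOPP and then IAA (1 µM) or IPyA, whose dose the labels give both as 100 and as 0.1 µM. They entered the fit as an estimate of the spread between arrays, and their levels are not described. The labels do not tell whether arrays of 1 group hold separately grown plants, and the p-values cover only the variation between these arrays, and that may be technical. Of 22746 probe sets that are not controls, 15922 had a mean log2 signal over all 12 arrays above the 30th percentile (a signal of 47.4) and were tested.

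L-AOPP resembles phenylalanine with an aminooxy group in place of the amino group. It is known to block phenylalanine ammonia-lyase, the entry enzyme of the phenylpropanoid pathway, and the submitters used it against auxin biosynthesis. In the main route to auxin, aminotransferases of the TAA1 family, which carry pyridoxal phosphate, turn tryptophan into indole-3-pyruvic acid, and YUC flavin monooxygenases turn that into indole-3-acetic acid. Auxin in turn induces GH3 enzymes, which conjugate it to amino acids, and the Aux/IAA repressors. The comparison asks which transcripts differed after 3 h of exposure to the inhibitor.

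Signals are the authors' linear MAS5 intensities, whose scale differs between probe sets, so levels are compared within a probe set only. Changes are log2 differences, L-AOPP minus mock, with the standard error (SE) of a paired limma fit. Calls are probe sets with an adjusted p under 0.05 in that fit (Benjamini-Hochberg, over all 15922). The 6 arrays had median signals of 169.2 to 182.6, and their pairwise Spearman correlations were 0.971 to 0.986. Summed over the 9 tested genes of the nuclear photosystem list, which marks green shoot tissue, the signal was 108895, 104791 and 90728 on the L-AOPP arrays and 99755, 104657 and 89847 on the mock arrays. The 4 tested root hair genes summed to 5613, 3901 and 4015 on the L-AOPP arrays and 6287, 3020 and 2951 on the mock arrays, highest in replicate 1 of both treatments. Fewer cells of a type and less RNA per cell cannot be told apart in these whole-plant samples.

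Of the 15922 probe sets, 92 were called (0.578%), 67 of them lower (0.421%) and 25 higher (0.157%) with L-AOPP. At an unadjusted p under 0.05 the directions were nearly even, with 1083 lower and 1044 higher (13.4% in all). The count of calls ran from 0 without replicate 2 to 329 without replicate 1. The change was at least 2-fold for 17 of the lower and 7 of the higher ones. The falls included 9 genes of the plastid genome, the methionine sulfoxide reductase gene MSRB9 and the pectin methylesterase gene ATPMEPCRB, and the rises included the defensin gene PDF2.5 and the kinase gene WAG2. The median change of all probe sets was 0.01, with 8419 above 0. Each call rests on the pairing by replicate number: without the replicate block limma called 0 probe sets (528 at an unadjusted p under 0.05, 3.32%), and the lowest adjusted p was 0.0985. For 45 of the 67 lower probe sets all L-AOPP arrays lay below all mock arrays, and for 20 of the 25 higher ones all lay above, where 3.77% and 3.98% of all tested probe sets do so. The calls were picked by the difference on these same arrays, so this separation is no independent support for them. Of the 52 calls with 1 gene, 8 held without each of the 6 arrays, and L-AOPP replicate 2 and mock replicate 3 mattered most: with L-AOPP replicate 2 left out, 8 of 39 falls and 0 of 13 rises were still called, and with mock replicate 3 left out, 11 and 0. With the fit on the 6 arrays alone, 8 of the 52 were still called. As 0 probe sets were called without replicate 2 as a pair, no call held without every pair.

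**Figure D1:**
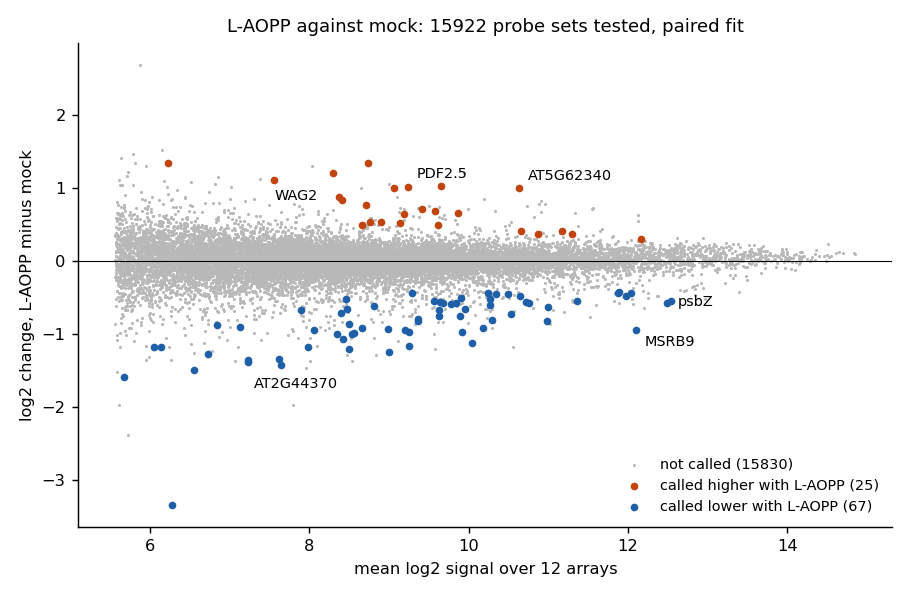
Log2 change (L-AOPP minus mock, y axis) against the mean log2 signal over 12 arrays (x axis) for the 15922 tested probe sets. Called probe sets are drawn in colour, 25 higher in orange and 67 lower in blue, and 6 of them are named. Falls outnumber rises among the called probe sets, and the lowest point is an unnamed probe set at -3.34.

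Of the 92 called probe sets, 52 are paired with 1 gene in the platform annotation (39 lower and 13 higher), 3 with several genes, and 37 are not listed there and are unnamed here. The largest called change in either direction belonged to unlisted probe sets, at -3.34 and 1.34. Most of the named genes carry only a locus code, so they are described by their levels. The 9 called plastid genes are the largest group among the 52 that can be read by function. Of 8614 distinct tested genes, 1220 have a symbol other than a locus code, and the 67 tested plastid genes are among them. Other lists hold only genes with a matching symbol or synonym. The prominence of the plastid group and the few calls in other lists may partly rest on naming, which was not tested.

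The plastid genome encodes core subunits of the photosystems, the cytochrome b6f complex, the ATP synthase and the NDH complex, as well as part of the plastid's own ribosomes and RNA polymerase. Of its 69 genes with a named probe set, 67 were tested. With L-AOPP 9 fell, and no member was called higher (0 of 67). Of all tested probe sets 0.421% were called lower and 0.157% higher. Over the 67, 63 changes were below 0 and 4 above, with a median of -0.38. Over all probe sets tested 47.1% were below 0, with a median of 0.01. At an unadjusted p under 0.05, 44 were lower and 1 higher, where 6.8% and 6.56% of all tested probe sets are. The 3 L-AOPP arrays lay on one side of the 3 mock arrays for 28 of the 67, against 7.74% of all tested probe sets. The median change of the 67 was -0.28, -0.40 and -0.48 in pairs 1, 2 and 3. Their summed signal was 357877, 353018 and 323793 with L-AOPP and 379091, 427757 and 383616 in mock, so that the sum was lower with L-AOPP in every pair. With L-AOPP replicate 2 left out 2 were called (13 over all tested probe sets), and with L-AOPP replicate 1 left out 20 (187 over all). With L-AOPP replicate 3 left out 3 were called (41 over all), and with mock replicate 3 left out 3 (19 over all). Without the replicate block 0 were called. With a whole pair left out the count was 32 without pair 1 (329 over all), 0 without pair 2 (0 over all) and 0 without pair 3 (6 over all). With the fit on the 6 arrays alone 1 was called (16 over all), and without an intensity trend in the fit 0 were (2 over all).

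The falls with the largest change were in small subunits of the cytochrome b6f complex, which passes electrons between the photosystems. The signal of petG was 341.8, 497.5 and 452.2 with L-AOPP, against 712.0, 870.8 and 925.8 in mock (log2 change -0.97 ± 0.17, adjusted p = 0.0289). That of petL was 857.8, 1293 and 758.8 with L-AOPP, against 1581, 1868 and 1527 in mock (-0.81 ± 0.11, adjusted p = 0.00703). In both genes all L-AOPP arrays lay below all mock arrays. The petL call held without each single array of the 6. It ended with the fit on the 6 arrays alone (adjusted p = 0.0731), without pair 2 (0.0557) or without pair 3 (0.135). That of petG ended without L-AOPP replicate 2 (adjusted p = 0.178), L-AOPP replicate 3 (0.0975) or mock replicate 3 (0.111). The 6 tested pet genes, all below 0, had a median of -0.27.

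In photosystem I, psaC encodes the subunit that carries the terminal iron-sulphur clusters. Its signal was 1654, 1769 and 1319 with L-AOPP, against 2455, 2640 and 2197 in mock, with no overlap (-0.63 ± 0.08, adjusted p = 0.00637, or 0.0568 without L-AOPP replicate 2). The 5 tested psa genes were all below 0, with a median of -0.40, and psaC was the 1 called.

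In photosystem II, 4 of 15 tested psb genes fell and 13 lay below 0 (median -0.49). Of all tested probe sets 0.421% were called lower and 47.1% lay below 0. The small subunit psbZ gave 3944, 5298 and 4179 with L-AOPP, against 6529, 6953 and 6332 in mock (-0.57 ± 0.07, adjusted p = 0.00637), and its call held without each array. Next to it on the plastid genome lie psbC, for the antenna protein CP43, and psbD, for the reaction centre protein D2. The signal of psbC was 3511, 3561 and 2816 with L-AOPP and 4450, 5091 and 4268 in mock (-0.49 ± 0.08, adjusted p = 0.019). For psbD it was 1131, 1083 and 800.2 with L-AOPP and 1432, 1509 and 1347 in mock (-0.52 ± 0.09, adjusted p = 0.0322). All 3 neighbours were separated from mock on every array.

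The 4th called member, psbL, lies in a run of neighbouring genes with psbJ, psbF and psbE, followed by petL and petG. Its signal was 1542, 1516 and 1258 with L-AOPP and 2116, 2428 and 1909 in mock (-0.58 ± 0.11, adjusted p = 0.0432). Its neighbours psbJ (-0.65, adjusted p = 0.0661) and psbE (-0.59, adjusted p = 0.0646) had changes as large or larger and were not called. The directly adjacent psbF had a smaller one, -0.41 (adjusted p = 0.155). The 1 plastid gene that was higher at an unadjusted p under 0.05 was psbM, for a small subunit of photosystem II, with signals of 26630, 23270 and 23600 with L-AOPP and 20150, 22060 and 20580 in mock (0.23 ± 0.08, adjusted p = 0.258). It is named here after its values were seen, as are psbJ, psbF, psbE, rpoC2, psbA and rbcL, and as are the called psbZ, psbC, psbD, psbL and ndhJ, which complete the 9 falls.

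Of the other called members, rpl14 encodes a protein of the plastid ribosome and ndhJ a subunit of the NDH complex, which feeds electrons back into the photosynthetic chain. The rpl14 signal was 438.3, 913.8 and 682.5 with L-AOPP and 787.5, 1300 and 1084 in mock (-0.67 ± 0.13, adjusted p = 0.0465). The ndhJ signal was 954.9, 1268 and 835.4 with L-AOPP and 1166, 1637 and 1333 in mock (-0.44 ± 0.09, adjusted p = 0.0469). In both genes the groups overlap, and the fall shows within each pair. The calls of psbC, psbD, psbL, rpl14 and ndhJ each ended without L-AOPP replicate 2, L-AOPP replicate 3 or mock replicate 3, at adjusted p values from 0.0726 to 0.256. That of rpl14 also ended without mock replicate 1 (0.0581), and that of psbL without mock replicate 1 (0.0603) or mock replicate 2 (0.0883). The ndhJ call also ended without mock replicate 2 (0.0631).

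Every functional group of plastid genes had a median below 0. The 4 rpo genes, for subunits of the plastid RNA polymerase, had a median of -0.58 and no call; rpoC2 was at 896.2, 1012 and 1088 with L-AOPP and 1439, 1544 and 1531 in mock (-0.60, adjusted p = 0.0881). All 14 tested genes of ribosomal proteins were below 0 (median -0.45). The medians were -0.26 for the 9 ndh genes, -0.20 for the 6 atp genes of the ATP synthase and -0.22 for 8 other genes. Probe set brightness differed within these groups. The bright atpB, atpE and atpA (mock means 22243, 19455 and 13459) changed by 0.001, -0.005 and -0.09. The dimmer atpF, atpH and atpI (4911, 3109 and 203) changed by -0.37, -0.32 and -0.31. Of other bright ones, named like these after their values were seen, petB (17678) was at -0.04 and rpl33 (12326) at -0.42. The part of brightness in the group medians was not tested. The psbA gene for the D1 protein, at -0.48 (adjusted p = 0.229), and rbcL for the large subunit of Rubisco, at -0.33 (adjusted p = 0.119), were not called.

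**Figure D2:**
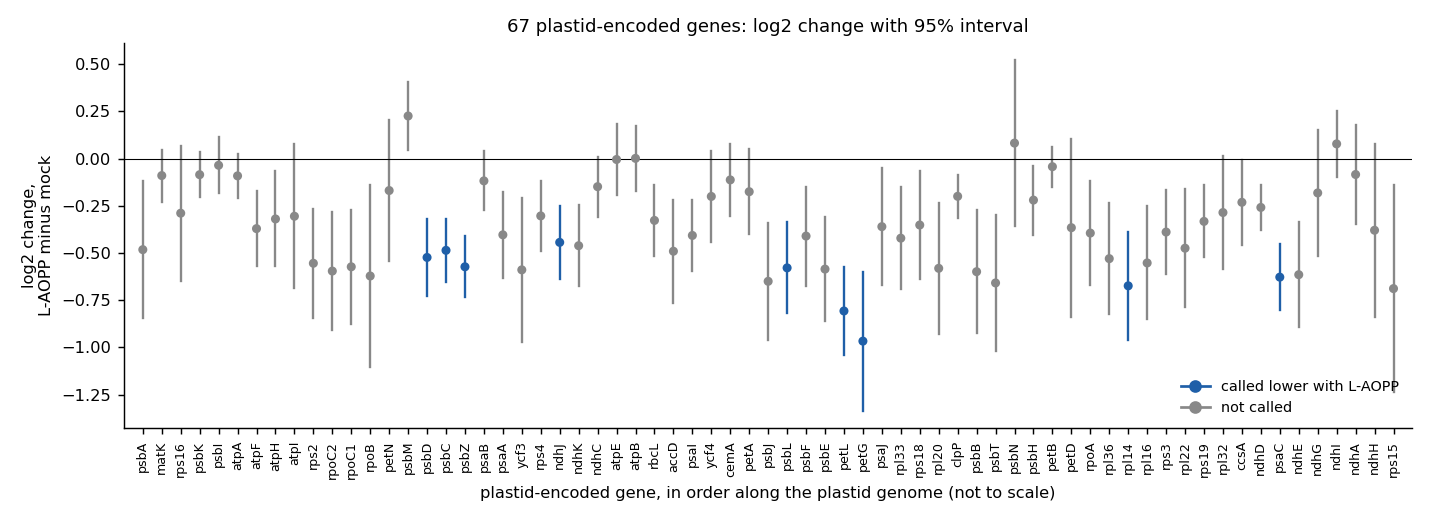
Log2 change (L-AOPP minus mock, y axis) of each of the 67 tested plastid-encoded genes, in their order along the plastid genome (x axis, not to scale). Points are the change in the paired fit and bars its 95% interval, with the 9 called genes in blue. Of the 67 points, 63 lie below 0, and psbD, psbC and psbZ as well as petL and petG stand side by side.

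Among nuclear genes for the same machinery, the 9 tested genes of the nuclear photosystem list had no call, 8 changes above 0 and a median of 0.05 (-0.01 without mock replicate 1). The antenna gene LHCB4.1 gave 22410, 19890 and 17720 with L-AOPP and 19920, 20070 and 17770 in mock (0.05 ± 0.06, adjusted p = 0.797), and LHCB4.2 had a change of 0.09 (adjusted p = 0.678). The nuclear probe sets were brighter: on the mock arrays the list's median signal was 13090, 12300 and 11310, against 4328, 5091 and 4770 for the plastid list. Plastid genes of such brightness, named after their values were seen, include psbK (mock mean 14919, change -0.09), psaB (17458, -0.12) and rpl33 (12326, -0.42). The difference between plastid and nuclear genes was not tested, and the 2 lists differ in brightness as well as in genome. Among controls of RNA integrity, the 3'/5' signal ratio of GAPDH was 1.25 ± 0.0998 with L-AOPP and 1.32 ± 0.0848 in mock (SD, n = 3 each) and was lower with L-AOPP in 3 of 3 pairs. A second GAPDH set gave 1.00 with L-AOPP and 0.914 in mock, lower in 1 of 3 pairs, and the ubiquitin sets gave 2.18 and 1.12 with L-AOPP and 2.17 and 1.12 in mock. The actin sets gave 11.4 with L-AOPP and 11.7 in mock (lower in 1 of 3 pairs) and 2.22 with L-AOPP and 2.44 in mock (lower in 3 of 3). Their part in the plastid shift was not tested.

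Of the 11 tested mitochondrion-encoded genes, ccb382, for a protein of cytochrome c maturation, fell. Its signal was 1250, 1060 and 920.6 with L-AOPP and 1675, 1964 and 1690 in mock (-0.73 ± 0.13, adjusted p = 0.0322). The call ended without L-AOPP replicate 2 or 3 or mock replicate 2 or 3 (adjusted p = 0.0714 to 0.19). The list had 9 changes below 0, where 47.1% of all tested probe sets lay below 0. Its median was -0.20, or -0.42 with the filter at the 50th percentile, -0.30 without replicate 1 and -0.31 without replicate 3. A nuclear chromosome of Col-0 carries a copy of much of the mitochondrial genome, so these probe sets could read either copy.

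No tested member of the auxin lists was called lower with the inhibitor, where 0.421% of all tested probe sets were. In lists this short, 0 calls says little. The GH3 list had no call (0 of 5), all 5 changes above 0 and a median of 0.35, and 3 of the 5 were higher at an unadjusted p under 0.05, where 6.56% of all tested probe sets are. The median was 0.61, 0.19 and 0.20 in pairs 1, 2 and 3, and it dropped to 0.09 when mock replicate 1 was left out. GH3.3 gave 1261, 707.8 and 609.1 with L-AOPP, against 825.0, 525.2 and 300.3 in mock (0.69 ± 0.22, adjusted p = 0.186). WES1, which is GH3.5, gave 2665, 1862 and 1280 with L-AOPP, against 1579, 1628 and 1108 in mock (0.39 ± 0.13, adjusted p = 0.22). Both were above mock within each pair, and the groups overlap, with replicate 3 the lowest in each treatment.

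The other GH3 genes were GH3.17 (0.20, adjusted p = 0.353), GH3.1 (0.35, adjusted p = 0.762) and GH3.9 (0.04, adjusted p = 0.962). The 4 tested Aux/IAA repressor genes, IAA18, IAA20, IAA29 and IAA30, also had no call, with changes of 0.14 to 0.24 and a median of 0.19. IAA29 and IAA30, like LBD16, HAT2 and PUCHI among the auxin genes described next, are named after their values were seen, to complete their lists. YUC2, the 1 tested gene of auxin synthesis, gave 175.3, 158.6 and 103.5 with L-AOPP and 132.4, 129.7 and 105.0 in mock (0.22 ± 0.16, adjusted p = 0.603). No gene of the tryptophan and SAUR lists was among the tested named probe sets (0 of each).

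WAG2 rose. It encodes an AGC kinase of the group that phosphorylates PIN auxin efflux carriers and acts on root waving. Its signal was 325.2, 416.1 and 308.9 with L-AOPP and 248.8, 194.2 and 139.4 in mock, with no overlap (0.88 ± 0.18, adjusted p = 0.0493). This was the highest adjusted p among the genes named as called, and the call ended without L-AOPP replicate 2 (0.282), L-AOPP replicate 3 (0.116), mock replicate 2 (0.113) or mock replicate 3 (0.201). Of its list, which holds other early auxin and auxin transport genes, LBD16, HAT2 and PUCHI were tested as well and not called (0.18, 0.22 and 0.41), and the median of the 4 was 0.32.

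The phenylpropanoid route, on which L-AOPP is known to act, is barely covered by the named genes. None of its phenylalanine ammonia-lyase genes was among the tested named probe sets (0 members). HCT, which makes the shikimate esters on the way to lignin, gave 3177, 3092 and 2496 with L-AOPP and 3402, 4113 and 3342 in mock. Its 3 L-AOPP arrays lay below the 3 mock arrays, and the change of -0.31 ± 0.07 was not called (adjusted p = 0.0806). The 5 flavonoid genes had no call and a median of 0.09. Among them DFR, the dihydroflavonol reductase of anthocyanin synthesis, gave 7849, 4939 and 3541 with L-AOPP and 4806, 4561 and 3760 in mock (0.25, adjusted p = 0.36). The 5 tested aminotransferases and other pyridoxal phosphate enzymes had no call and a median of -0.04.

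MSRB9 had the lowest adjusted p of any gene named here. It encodes a methionine sulfoxide reductase, an enzyme that repairs oxidised methionine in proteins. Its signal was 2198, 2943 and 2998 with L-AOPP, against 4176, 6792 and 4905 in mock (-0.95 ± 0.08, 1.93-fold lower, adjusted p = 0.000344). Every L-AOPP array lay below every mock array, and the call held without each of the 6 arrays. Of 17 tested redox genes it was the 1 called, and the list's median was 0.01. Its relative MSRB5, named after its values were seen, gave 937.3, 1478 and 965.4 with L-AOPP and 378.6, 908.4 and 826.5 in mock (0.74 ± 0.17, adjusted p = 0.0782). The glutaredoxin gene GRX480, named on the same footing, had a change of -1.05 ± 0.38 (adjusted p = 0.256).

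In the cell wall lists, ATPMEPCRB fell. This pectin methylesterase, PME41, removes methyl groups from pectin. Its signal was 429.0, 515.6 and 484.7 with L-AOPP and 671.9, 950.6 and 873.1 in mock, with no overlap (-0.79 ± 0.10, 1.73-fold lower, adjusted p = 0.00394), and the call held without each array. It was the 1 call among 18 pectin and other wall enzymes (median 0.06). The 21 expansins and XTH enzymes, which loosen the wall, had no call and a median of -0.03, with 5 higher and 5 lower at an unadjusted p under 0.05 (23.8% each way, against 6.56% and 6.8% of all tested probe sets). Without L-AOPP replicate 1, 4 of them were called (187 over all tested probe sets). Without mock replicate 1, 5 were called (202 over all) and the median was 0.12. XTH26, with the highest change here (1.01), is also in the root hair list described below, as are the expansins EXPA7 and EXPA18. The rises in the 2 lists are therefore partly those of the same genes.

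Small secreted defence peptides did not move together. PDF2.5, a plant defensin gene, gave 1018, 1043 and 831.4 with L-AOPP, against 476.3, 487.0 and 465.6 in mock (1.01 ± 0.16, 2.01-fold higher, adjusted p = 0.0179). It rose on all 3 arrays beyond the mock range, and the call ended without L-AOPP replicate 2 (adjusted p = 0.125) or mock replicate 3 (0.075). The other 5 tested members of the list were not called: LCR67 (-0.39), PDF1.4 (-0.22), LCR68 (-0.08), LCR69 (0.03) and PDF2.1 (0.32). LCR69 gave 18870, 16130 and 18880 with L-AOPP and 20800, 16080 and 16310 in mock.

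Ubiquitin ligases of the stress-induced U-box and ATL families had 7 of 10 changes below 0 and 1 call. Among all tested probe sets 47.1% lay below 0 and 0.421% were called lower. Of the 10, 4 were lower and 0 higher at an unadjusted p under 0.05, against 6.8% and 6.56% of all tested probe sets. The list's median was -0.43, or -0.26 with the filter at the 50th percentile. By pair the median was 0.06, -0.39 and -0.55, so that pair 1 did not share the fall. PUB22, a U-box ligase known to dampen immune signalling, fell: its signal was 481.8, 960.3 and 933.4 with L-AOPP and 681.9, 1400 and 1508 in mock (-0.58 ± 0.11, adjusted p = 0.0437). The groups overlap, since both replicate 1 arrays are lower than the others. The call ended when any of 5 of the 6 arrays was left out, at adjusted p values from 0.054 to 0.248. PUB23 was at 186.9, 625.0 and 681.0 with L-AOPP and 148.7, 1228 and 1326 in mock (-0.54, adjusted p = 0.483), and PUB19 had a change of -0.86 (adjusted p = 0.195). Both are named after their values were seen.

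The lists of touch, cold and drought genes had no call. Of 10 touch and wounding genes 6 changes lay below 0, and the median was -0.10. At an unadjusted p under 0.05, 2 of the 10 were lower and 0 higher (20.0% lower, against 6.8% of all tested probe sets). The calmodulin-like gene CML38, the lowest of this list and named after its values were seen, gave 91.2, 982.8 and 823.6 with L-AOPP and 212.2, 1664 and 2067 in mock (-1.10 ± 0.30, adjusted p = 0.12). Of 14 abscisic acid, cold and dehydration genes 8 changes lay below 0, and the median was -0.14, or -0.01 without L-AOPP replicate 1. At an unadjusted p under 0.05, 4 of the 14 were lower and 0 higher (28.6% lower, against 6.8% of all tested probe sets). The dehydrin gene AT1G54410, also named HIRD11, gave 3801, 2674 and 5557 with L-AOPP and 6109, 4315 and 6216 in mock (-0.51 ± 0.16, adjusted p = 0.172), and COR47 had a change of -0.13. COR15A, the lowest of this list and named after its values were seen, was at 88.6, 164.3 and 281.8 with L-AOPP and 334.5, 369.4 and 276.2 in mock (-1.02 ± 0.32, adjusted p = 0.184).

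The lists of detoxification genes showed no call. The 12 glutathione transferases had a median of 0.08, the 36 UDP-glycosyltransferases 0.03 and the 11 cytochromes P450 0.10. GSTU20 was at 2796, 1995 and 1541 with L-AOPP and 1962, 1703 and 1686 in mock (0.20, adjusted p = 0.453). The glycosyltransferase gene UGT88A1 had a change of 0.01 (adjusted p = 0.98). The 8 peptide and nitrate transporters of the NPF list had a median of -0.01, the 5 class III peroxidases -0.03 and the 12 glucosinolate genes -0.01. None of these listed members was called. Members were found by symbol or synonym, so a called gene known here by locus code may still belong to one of these families.

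**Figure D3:**
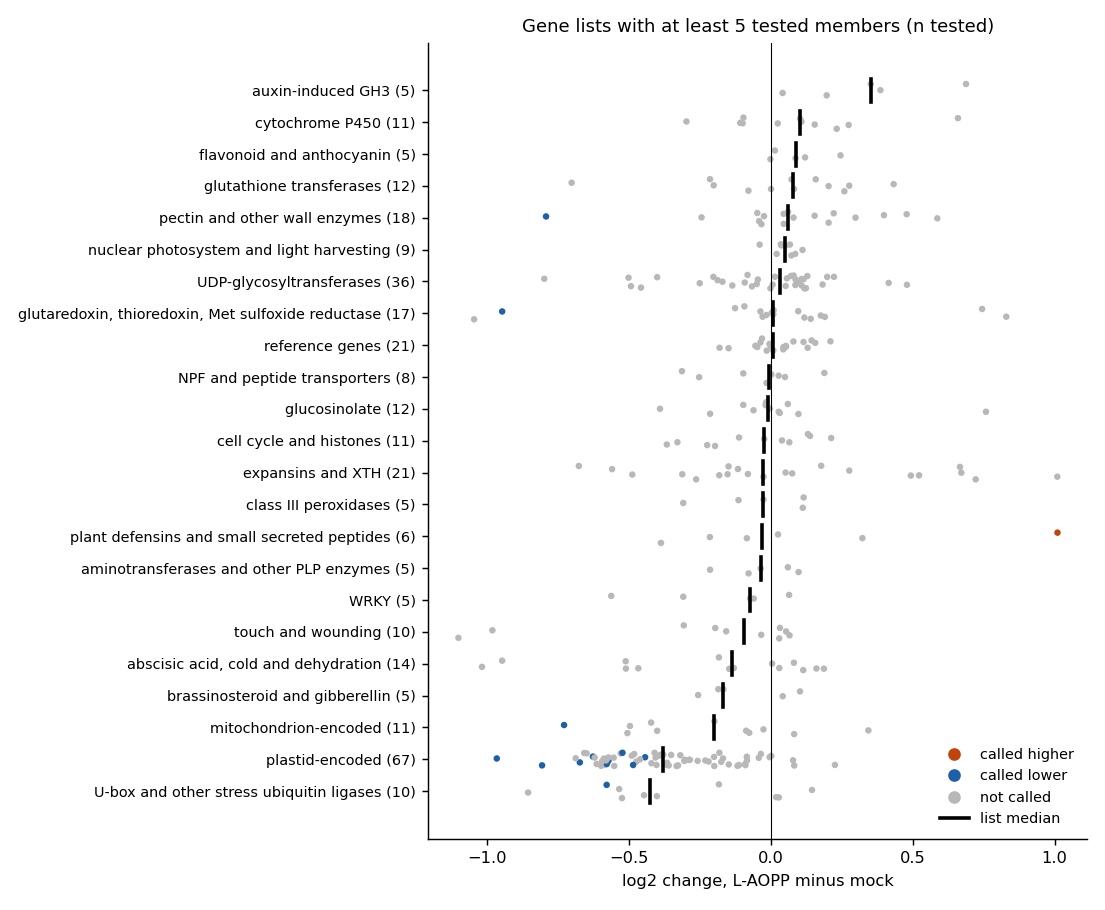
Log2 change (L-AOPP minus mock, x axis) of the tested members of the 23 gene lists with at least 5 of them, 1 list to a row with its number of tested members in brackets. Points are members, coloured where called, and black bars are list medians. In this fit the GH3 list has a median of 0.35, the U-box list -0.43 and the plastid-encoded list -0.38. The order of the lists changes with the settings: GH3 is at 0.09 without mock replicate 1, and with the filter at the 50th percentile the U-box list is at -0.26 and the mitochondrion-encoded list at -0.42.

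The remaining lists had no call. Their medians were -0.02 for 11 cell cycle and histone genes, -0.07 for 5 WRKY genes, -0.17 for 5 brassinosteroid and gibberellin genes and 0.01 for 21 reference genes. At an unadjusted p under 0.05, 4 of the 11 cell cycle and histone genes were lower and 0 higher (36.4% lower, against 6.8% of all tested probe sets). Lists with 1 to 4 tested members included the ethylene (2 genes, EIN3 at -0.14 and RTE1 at 0.12), jasmonate (1, JRG21 at -0.12), cytokinin (3, median -0.19), BAHD acyltransferase (3, median -0.21), nutrient (2, median 0.47) and clock lists. The 2 clock genes were XCT (0.64, adjusted p = 0.152) and GI (0.10, adjusted p = 0.815). Besides those named above, the salicylate, MATE and ABC transporter, berberine bridge enzyme, triterpene, cytosolic ribosome and heat shock lists had 0 tested named probe sets. Lists were matched on symbols and synonyms. Genes known here by locus code, called ones included, may belong to these and the other lists, so 0 members does not mean that a function was not measured.

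Among nuclear genes known here by locus code, AT2G44370 had the largest fall of any named gene. Its signal was 81.2, 97.0 and 121.0 with L-AOPP, against 247.7, 290.8 and 253.1 in mock (-1.42 ± 0.13, 2.67-fold lower, adjusted p = 0.00056). AT5G47980 gave 164.8, 148.3 and 144.4 with L-AOPP and 337.4, 379.5 and 323.1 in mock (-1.18 ± 0.14, adjusted p = 0.00377). Its adjusted p was 0.0557 without pair 2 and 0.0627 without pair 3. AT4G20830 gave 688.2, 786.5 and 642.1 with L-AOPP and 1201, 1641 and 1196 in mock (-0.92 ± 0.10, adjusted p = 0.00324). In these 3 genes the arrays separated fully, and the calls held without each of the 6 arrays. The same held for the call of AT3G46280 (-0.66 ± 0.09), which is named here after its values were seen.

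AT5G19110 gave 171.6, 204.7 and 255.3 with L-AOPP and 489.0, 517.8 and 431.7 in mock (-1.20 ± 0.15, adjusted p = 0.00637, or 0.0528 without L-AOPP replicate 2). AT2G24600 gave 52.0, 107.7 and 93.1 with L-AOPP and 184.9, 287.3 and 172.7 in mock (-1.38 ± 0.22, adjusted p = 0.019, or 0.134 without L-AOPP replicate 2). AT1G72140 gave 108.2, 94.6 and 69.1 with L-AOPP and 162.0, 216.7 and 132.8 in mock (-0.91 ± 0.15, adjusted p = 0.0235). None of the 3 overlapped, and the call of AT1G72140 ended without any of 4 arrays (adjusted p = 0.075 to 0.152). AT4G28085 fell (-0.95 ± 0.17), with 181.3, 184.5 and 136.6 on the L-AOPP arrays and 238.9, 544.9 and 250.6 on the mock arrays. Its call ended without any of 4 arrays: L-AOPP replicate 2 (-0.72, adjusted p = 0.177), mock replicate 3 (-0.94, 0.14), mock replicate 2 (-0.76, 0.117) or L-AOPP replicate 3 (-1.0, 0.0744).

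Of the dimmer falls, AT5G28430 and AT3G55840 (both -1.17) had an L-AOPP mean signal below 47.4, the level at which probe sets were left out, so their size is the least secure. AT4G24110 gave 27.8, 122.3 and 176.9 with L-AOPP and 137.0, 235.3 and 312.2 in mock (-1.35 ± 0.27, adjusted p = 0.0465). Its groups overlap, and its change was the 1 among the 52 genes that moved by more than 1.5 times when a whole pair, pair 1, was left out.

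**Figure D4:**
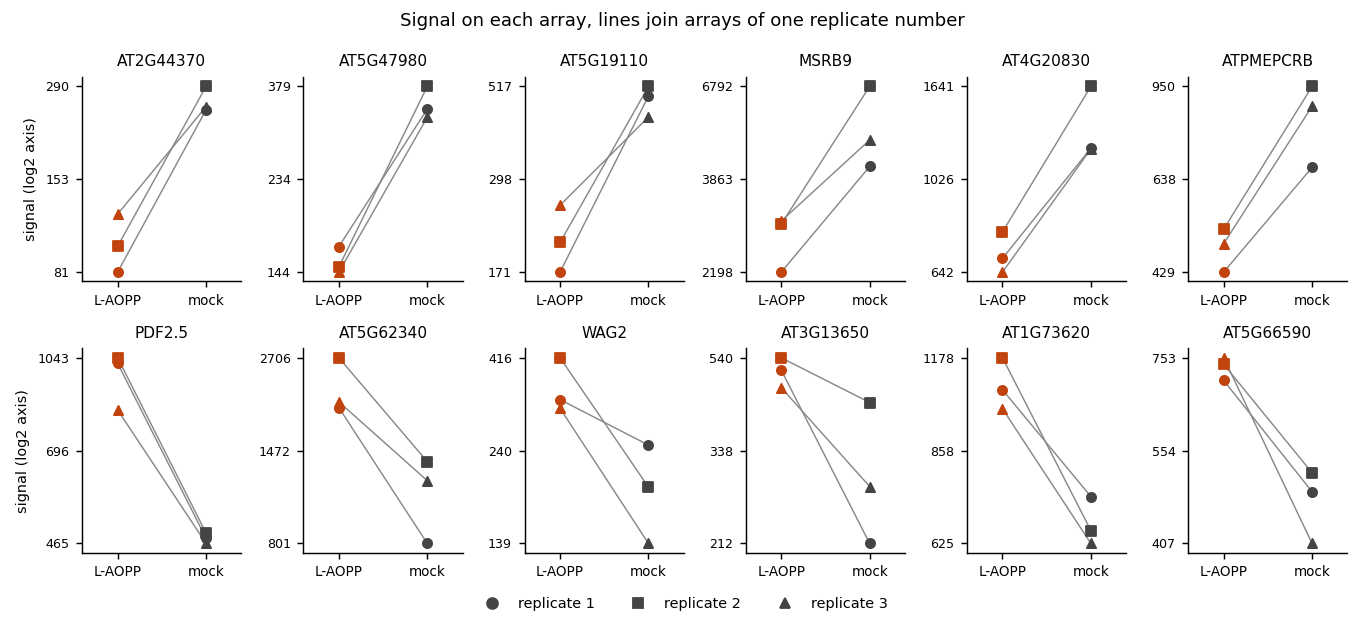
Signal of 12 called genes on each L-AOPP array (orange, left) and mock array (grey, right), each panel with its own log2 axis of linear MAS5 signal. Lines join the arrays of 1 replicate number, which the symbol shows. In the top row every L-AOPP point lies below every mock point, and in the bottom row above.

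Rises were fewer. AT5G62340 gave 1952, 2706 and 2026 with L-AOPP and 801.1, 1370 and 1209 in mock (1.00 ± 0.17, 2.01-fold higher, adjusted p = 0.0232). The call ended if L-AOPP replicate 2 (0.152) or mock replicate 3 (0.0783) was left out. AT3G13650 gave 507.4, 540.0 and 464.7 with L-AOPP and 212.6, 431.3 and 282.9 in mock (0.77 ± 0.15, adjusted p = 0.0467). AT1G73620 gave 1056, 1178 and 989.9 with L-AOPP and 733.6, 653.2 and 625.1 in mock (0.68 ± 0.12, adjusted p = 0.0295). In all 3 the arrays separated.

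AT5G66590 gave 699.0, 737.2 and 753.3 with L-AOPP and 483.8, 515.1 and 407.9 in mock (0.64 ± 0.11, adjusted p = 0.0235). Smaller rises were those of AT5G65650 (0.54), AT4G28310 (0.53), AT3G13230 (0.50), AT3G04920 (0.41), AT2G39390 (0.41) and AT2G37130 (0.37). AT5G62440 rose on 1 of its probe sets (0.50, adjusted p = 0.0282) and was not called on the other (0.31, adjusted p = 0.327). None of the 13 rises kept its call without each of the 6 arrays (0 of 13), against 8 of the 39 falls, though no change of either kind moved by more than 1.5 times when 1 array was left out.

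Several genes differed more between replicate numbers than between treatments. AT4G29780 fell with L-AOPP, and both of its replicate 1 arrays were far below the rest: its signal was 200.6, 1600 and 1315 with L-AOPP and 419.5, 2974 and 3488 in mock (-1.12 ± 0.19, adjusted p = 0.0248). AT2G41640 gave 116.4, 301.1 and 318.1 with L-AOPP and 190.7, 698.1 and 675.3 in mock (2.01-fold lower, adjusted p = 0.0344). AT1G76600 (-0.82, named after its values were seen) gave 194.4, 871.9 and 674.5 with L-AOPP and 237.4, 1713 and 1553 in mock. In each, the groups overlap and the difference shows within pairs only.

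In both treatments the replicate 1 signal was under 50% of replicates 2 and 3 for 5 of the 67 lower probe sets, which include these 3 and AT2G18210 (-0.88). This held for 0 of the 25 higher ones and for 0.559% of all tested probe sets. Which condition of culture or handling a replicate number stands for is not given in the labels.

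Root hair genes showed the opposite replicate pattern. Of 4 tested members all lay above 0, with a median of 0.70 and no call. EXPA7, a root hair expansin, gave 1590, 582.0 and 774.8 with L-AOPP and 1928, 258.7 and 320.2 in mock (0.72 ± 0.22, adjusted p = 0.178). It was lower with L-AOPP in pair 1 and higher in pairs 2 and 3. EXPA18 (0.67), XTH26 (1.01) and the wall gene GH9C1 (0.59), named after their values were seen, ran the same way. Without replicate 1 the changes of EXPA7 (1.22, adjusted p = 0.00114), EXPA18 (1.05, adjusted p = 0.00229), XTH26 (1.65, adjusted p = 0.0179) and GH9C1 (1.01, adjusted p = 0.00478) were called. In that setting 329 of all tested probe sets were called, against 92 with all arrays. SCN1, the 4th member of the list and a regulator of root hair initiation, had a change of 0.00 (adjusted p = 0.995).

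**Figure D5:**
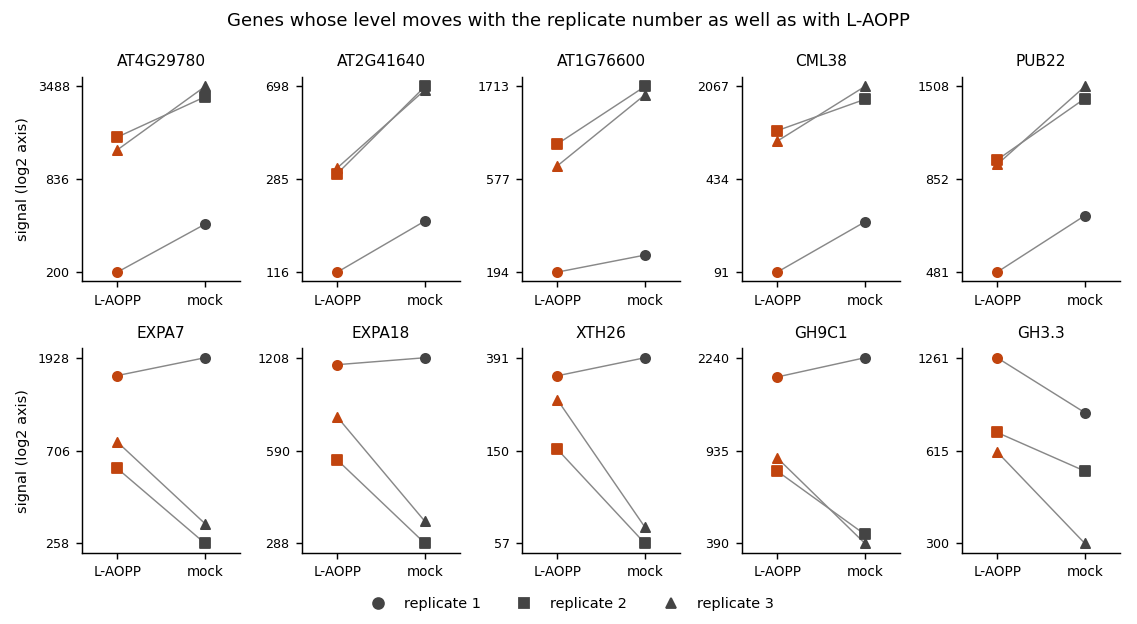
Signal of 10 genes on each L-AOPP array (orange, left) and mock array (grey, right), each panel with its own log2 axis of linear MAS5 signal. Lines join arrays of 1 replicate number. In the top row replicate 1 (circles) lies below the other replicates in both treatments, and in the bottom row above, with the 4 root hair and wall genes higher with L-AOPP in pairs 2 and 3 only.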

How the data were processed

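RNA of whole plants was hybridised to 12 single-colour arrays. The authors deposited 1 linear intensity for each probe set and array, from MAS5 per the submitters' processing notes; neither its version nor its settings are known here. The log2 of the signal (floor 0.05) was fitted in limma 3.58.1 (R 4.3.3) over all 12 arrays with group and replicate number as terms and eBayes with an intensity trend, and the contrast L-AOPP minus mock was tested two-sided. Left out were 64 control probe sets and 6824 dim ones. The fit was also run on data simulated with the fitted replicate effects and independent noise. That run takes the pairing as given, so it cannot show whether the pairing holds. The number of arrays limits the precision.

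Replicate numbers come from the titles. Deviations from group means correlated at 0.501 to 0.685 between arrays of the same number (18 pairs) and at -0.582 to 0.123 otherwise (36 pairs), so the numbers were taken to pair the arrays. Deviations within each group sum to 0, so a positive same-number correlation pulls the other correlations below 0. The second range is therefore not separate support for the pairing.

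Of all non-control probe sets, 13513 have 1 gene in the platform annotation, 503 several and 8730 are not listed; 13436 have a row in a reference gene table (TAIR10.1), used for names and gene order only. Among the tested, 8708 have 1 gene, 317 several and 6897 none listed. Probe sets of 1 gene were not averaged.

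The members, the 43 gene lists and the tests were chosen with earlier results of these data known. After matching, organelle genes were found by the reference table's own names, and members whose symbol matched but whose gene has another function were removed. Lists are described by counts and medians, with no test. The text names, among called probe sets with 1 gene and 1 direction in 3 pairs, the 15 largest rises and falls, up to 4 called members of each list, the 2 brightest members of lists with no call where a value adds to the description, and all tested members of the GH3, auxin synthesis, phenylalanine ammonia-lyase and defensin lists. All 92 called probe sets moved 1 way in 3 pairs. Promoter motifs were not analysed here.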

Additional observations from a re-analysis of the deposited data

How the results depend on the processing

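The 92 calls (67 lower, 25 higher) stayed within 1.5 times of that number with quantile normalization (103, of which 92 shared), median centring (95, 90 shared), log2(signal + 16) (95, 91 shared) and a filter at the 50th percentile (84, 80 shared). Without the replicate block the counts were 0, 0 and 0 for all, lower and higher calls; with the block on the 6 arrays only they were 16, 13 and 3 (12 shared), without the intensity trend 2, 2 and 0, and with no filter on dim probe sets 48, 35 and 13. Leaving out 1 array or 1 pair in turn gave 0 to 329 calls, 0 to 229 lower and 0 to 100 higher. The lowest count came without replicate 2 and the highest without replicate 1, where 76 of the 92 were shared; without replicate 3 it was 6. Leaving out single arrays gave 187 (L-AOPP replicate 1), 13 (L-AOPP replicate 2), 41 (L-AOPP replicate 3), 202 (mock replicate 1), 48 (mock replicate 2) and 19 (mock replicate 3). The cause of these shifts was not tested. The median change of the plastid-encoded genes was -0.30 to -0.50 over these omissions and -0.37 to -0.40 over the other settings, and 0 of the 67 were called without the replicate block. No called value of a named gene changed direction under these settings. The median change of all probe sets stayed between 0.00 and 0.02. For the other lists, which have few members, medians move more: of all list medians, 28 values under an alternative moved by more than the spread between pairs and 363 did not.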
